A study of Mus musculus with 20 samples.

Results

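The mitochondrial respiratory chain was followed at the RNA level in endothelial cells sorted from mouse sciatic nerve. Its subunits were chosen by gene symbol: the Ndufa, Ndufb, Ndufc, Ndufs, Ndufv, Uqcr, Cox4 to Cox8 and Atp5 families, the 4 Sdh genes and the mt-Nd, mt-Co, mt-Cytb and mt-Atp genes. Ndufa4, the Ndufaf assembly factors and pseudogene symbols were left out. The rule uses symbols alone, but it was set with earlier results of these data known. Of 55376 genes in the tables, 101 were members, 88 encoded in the nucleus and 13 in the mitochondrial genome. Complexes were assigned by symbol alone, which places Ndufa4l2 in complex I. By that rule the nuclear members comprise 40 of complex I, 4 of complex II, 8 of complex III, 19 of complex IV and 17 of complex V. Ndufa4l2 is a paralog of the excluded Ndufa4 and was kept because its symbol matches the rule, while Ndufb1-ps was dropped by its ending although it had 37697 counts in all.

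In the Tomato experiment, adult mice carried Cdh5(PAC)-CreERT2, an endothelial driver, and a Cre-dependent Tomato reporter at Rosa26. Cells came from pooled uninjured sciatic nerves (intact, 5 libraries) or from the lesion at 7 days (7 dpi, 5 libraries) and 14 days (14 dpi, 4 libraries). In the Cherry experiment, cells were sorted by a Kdr-Cherry reporter at 7 dpi from Plxnd1 KO mice (Cdh5-driven CreER with Plxnd1 fl/fl, 3 libraries) or from Plxnd1 WT controls (3 libraries). Sorted cells were reporter-positive and CD45-negative. The lesion is called a bridge in the design text and a crush in the labels. Whether the controls carried Cre is not given in the sources used here, and the Cherry sort did not select recombined cells.

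The respiratory chain passes electrons from NADH and succinate to oxygen through complexes I to IV and pumps protons, and complex V, the ATP synthase, uses the resulting gradient. Most subunits are encoded in the nucleus and imported. The mitochondrial genome encodes core membrane subunits of every complex except complex II, so both genomes contribute to the same machines. Endothelial cells draw much of their ATP from glycolysis, and the chain is also known there for keeping up aspartate and NAD+ during proliferation.

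Total counts per library were 19057029 to 34181449 in the Tomato experiment and 19253137 to 33793402 in the Cherry experiment. Nuclear members took 1.23 to 2.02% of all counts in Tomato libraries and mitochondrial members 1.25 to 2.44%. The deleted gene, Plxnd1, averaged 150.7 ± 16.7 CPM in KO and 339.1 ± 13.4 CPM in WT libraries (SD, n = 3 each), counted over the whole gene. CPM is a count scaled to the library size after TMM normalization. Pan-endothelial markers averaged 8.36 to 9.77 on the log2(CPM + 1) scale in all 20 libraries. In bulk RNA, fewer cells of a type and less RNA per cell cannot be told apart. The labels put each library in batch 1133 or batch 1292, and every group is in both. The intact libraries of replicates 4 and 5, both of batch 1133, stood apart: their nuclear members summed to 21609 and 10895 CPM, the highest and the lowest of all 20 libraries. The TMM factor of intact replicate 5 was 1.32, against 0.894 to 1.05 for the other Tomato libraries. Its place as the lowest holds only after that scaling. Of its raw counts nuclear members took 1.42%, within the 1.32 to 2.02% of the intact group. The lowest raw share was 1.23%, in 14 dpi replicate 3.

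Only 7 of the 13 mitochondrial members could be followed. The other 6 had almost no reads in any library: over all 20 libraries together, mt-Atp6 had 43 counts, mt-Co3 had 9, mt-Co2 had 5, mt-Nd4l and mt-Atp8 had 1 each, and mt-Nd3 had 0. Genes from the same polycistronic transcripts had far more, with 3161358 counts for mt-Co1 and 2814167 for mt-Cytb. Sequence copies of these genes are annotated elsewhere in GENCODE M21. Of the 50-base words of mt-Co2, mt-Co3, mt-Atp6, mt-Nd4l and mt-Nd3, between 98.0% and 100% also occur in a transcript of another gene. For mt-Cytb, mt-Nd1 and mt-Nd6 the share was 0%, for mt-Nd5 7.61%, for mt-Nd2 8.19%, for mt-Co1 51.1% and for mt-Nd4 62.2%. The exception among the uncounted genes was mt-Atp8, with 0% of shared words and a coding stretch (chromosome M, 7766-7969) that overlaps mt-Atp6 (7927-8607). How reads with several alignments or overlapping genes were treated is not given in the sources used here. The opening bases of a subunit without counts and of one with counts, from GENCODE M21 (GRCm38, chromosome M, plus strand), show the contrast; the first is found whole in the gene model Gm28661 and the second in no other gene.
mt-Co2, bases 1 to 60: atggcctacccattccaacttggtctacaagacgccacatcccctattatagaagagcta
mt-Co1, bases 1 to 60: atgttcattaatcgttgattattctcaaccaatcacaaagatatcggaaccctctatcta
The gene model Gm28661 itself had 22 counts over the 20 libraries. Statements on mitochondrial members below therefore cover 5 genes of complex I (mt-Nd1, mt-Nd2, mt-Nd4, mt-Nd5 and mt-Nd6), with mt-Cytb of complex III and mt-Co1 of complex IV, and none of complex V. The end of mt-Nd6, on the minus strand, overlaps that of mt-Nd5, and whether counting used strand is not given in the sources used here.

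**Figure D1:**
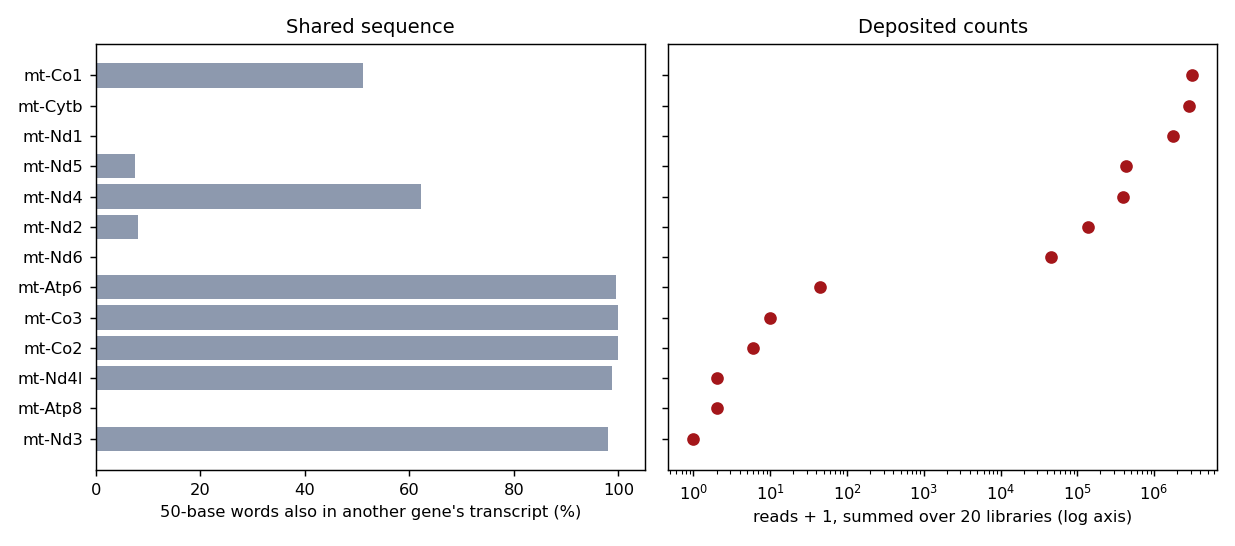
Percent of 50-base words shared with another gene's transcript (left) and deposited counts summed over 20 libraries, plus 1, on a log axis (right) for the 13 mitochondrial members. The 6 genes at the bottom had 43 counts or fewer; 5 of them share at least 98.0% of their words, and mt-Atp8 shares none.

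Per length, mt-Cytb, mt-Co1 and mt-Nd1 stood far above every nuclear member in intact nerve. The other counted mitochondrial members, mt-Nd2, mt-Nd4, mt-Nd5 and mt-Nd6, lay below the highest nuclear ones. In intact nerve mt-Cytb, cytochrome b of complex III, reached 5761 ± 966 CPM per kb of exon, and mt-Co1, the catalytic subunit of complex IV, 4394 CPM per kb. Since 51.1% of mt-Co1 words also occur in other genes, against 0% for mt-Cytb, their order is uncertain. Cox4i1, the ubiquitous subunit 4 of complex IV, was the highest nuclear member with 1459 ± 607 CPM per kb (SD, n = 5). Next came Atp5b, the catalytic beta subunit of the ATP synthase, with 829.7 ± 133.4 CPM per kb, and both kept ranks 1 and 2 in all 5 groups. The highest of complex III was Uqcrh, the hinge protein, with 438 CPM per kb, that of complex I was Ndufa7 with 364 and that of complex II was Sdhb, the iron-sulfur subunit, with 196. At the low end Cox6a2, the heart and muscle isoform of subunit 6a, stayed below 0.09 CPM per kb in every library. Atp5l is uncertain, since 84.8% of its words occur in other genes and it had 530 counts in all. Lengths are of all annotated exons together, so the level of a gene with long rare exons is understated.

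Promoters of the nuclear members are known to carry sites for NRF1, ETS factors such as GABP, and YY1. RefSeq promoters (GRCm38, 250 bases before to 50 after the start) were matched by symbol for 67 of 88 nuclear members and searched on both strands. The NRF1 motif, with 1 free base, occurred in 16 of 67 (23.9%), against 5.93% of all 20743 promoters. The ETS motif CCGGAAG occurred in 16 (23.9%), against 11.01%, and the YY1 motif in 7 (10.4%), against 2.19%. All 7 promoters with the YY1 motif belonged to complex I, which had 32 of the 67. A match is a run of letters and not a measured site. Promoters of members that the results turn on, the largest falls and rise among them, are printed 5′ to 3′ on the gene's strand, with the letters that matched a motif in capitals: Cox7a1 and Cox6b2 held none of the 3 motifs, Ndufa8 held 1 for NRF1, Sdha 3 for NRF1 and Ndufs7 1 for YY1.
Cox7a1 (chr7:30183921-30184220, plus strand): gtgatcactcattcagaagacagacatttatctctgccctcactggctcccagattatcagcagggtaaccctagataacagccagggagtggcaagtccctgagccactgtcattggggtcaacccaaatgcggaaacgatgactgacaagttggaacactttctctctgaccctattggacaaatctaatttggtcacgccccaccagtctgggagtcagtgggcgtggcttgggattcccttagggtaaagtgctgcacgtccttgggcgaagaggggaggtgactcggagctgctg
Cox6b2 (chr7:4753045-4753344, minus strand): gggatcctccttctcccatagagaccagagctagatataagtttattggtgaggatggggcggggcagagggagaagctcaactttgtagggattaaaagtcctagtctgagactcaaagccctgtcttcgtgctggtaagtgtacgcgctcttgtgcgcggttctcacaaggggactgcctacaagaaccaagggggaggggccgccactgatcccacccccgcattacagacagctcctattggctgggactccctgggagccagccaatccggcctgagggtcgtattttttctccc
Ndufa8 (chr2:36049289-36049588, minus strand): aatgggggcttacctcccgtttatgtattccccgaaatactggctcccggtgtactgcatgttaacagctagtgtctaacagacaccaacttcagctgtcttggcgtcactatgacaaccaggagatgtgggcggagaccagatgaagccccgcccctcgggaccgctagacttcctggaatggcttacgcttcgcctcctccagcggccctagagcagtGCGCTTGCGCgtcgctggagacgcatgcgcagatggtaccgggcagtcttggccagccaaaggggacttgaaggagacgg
Sdha (chr13:74350191-74350490, minus strand): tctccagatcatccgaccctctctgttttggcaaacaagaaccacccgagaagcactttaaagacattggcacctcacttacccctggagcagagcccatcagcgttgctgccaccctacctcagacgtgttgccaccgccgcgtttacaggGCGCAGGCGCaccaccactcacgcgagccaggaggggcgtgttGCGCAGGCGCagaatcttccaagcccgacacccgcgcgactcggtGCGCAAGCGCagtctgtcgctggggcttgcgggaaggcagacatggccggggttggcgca
Ndufs7 (chr10:80249199-80249498, plus strand): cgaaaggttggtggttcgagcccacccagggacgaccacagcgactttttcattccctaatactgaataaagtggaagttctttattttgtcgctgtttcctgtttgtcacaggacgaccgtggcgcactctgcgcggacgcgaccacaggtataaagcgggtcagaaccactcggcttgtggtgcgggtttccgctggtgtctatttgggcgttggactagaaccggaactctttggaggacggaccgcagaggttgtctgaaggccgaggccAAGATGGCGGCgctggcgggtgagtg

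**Figure D2:**
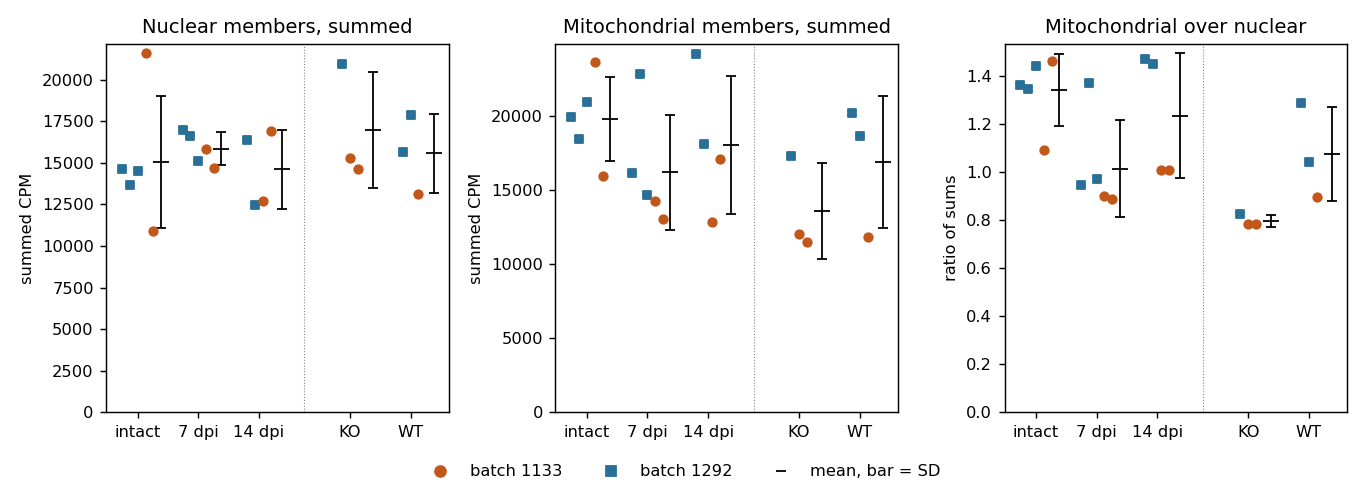
Summed CPM of the nuclear members (left), summed CPM of the mitochondrial members (middle) and their ratio (right) in each library, with group mean and SD; circles are batch 1133 and squares batch 1292. KO libraries lie between 0.783 and 0.827 in the ratio, below all WT libraries; intact replicate 4 has the highest nuclear sum.

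The first comparison sets lesion endothelium at 7 dpi against intact nerve and asks which subunits respond to injury. The nuclear chain showed no common shift: 7 members rose and 5 fell of 82 tested, and the median log2 fold change was 0.08. Those 12 are 14.6% of the members tested, against 32.0% of all 20409 genes that passed the same rule (edgeR, Benjamini-Hochberg adjusted p under 0.05), whose median was -0.10. Of the better counted nuclear members (average log2 CPM 6 or more) 9 of 68 passed, against 49.0% of all 3349 genes at that level. The 7 mitochondrial members tested all had negative values, with a median of -0.36, and 2 of them fell; over all genes 44.7% were positive. That mitochondrial median was -0.65 in batch 1133 and -0.09 in batch 1292, where 1 of 7 was positive; it was -0.20 without intact replicate 4 and -0.11 without intact replicates 4 and 5, all 7 still negative. By complex, the nuclear medians were -0.03 for I, 0.10 for II, 0.14 for III, 0.08 for IV and 0.20 for V.

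Cox7a1, the isoform of subunit 7a known from heart and skeletal muscle, had the largest change. It measured 1.99, 1.18, 0.458, 0.514 and 0.494 CPM at 7 dpi, against 11.9, 7.38, 12.5, 18.8 and 5.07 CPM in intact nerve. Every lesion library lay below every intact one, for a log2 fold change of -3.68 ± 0.44 (SE; adjusted p = 7.4e-06 by edgeR; two-sided exact permutation p = 0.00794). Its printed promoter holds none of the 3 motifs, and 33 of the 67 nuclear promoters (49.3%) hold any, or 3 of 13 in complex IV. Its share of Cox7a1 and Cox7a2 together, per length, was 0.442 ± 0.234% at 7 dpi and 5.31 ± 0.82% in intact nerve (SD, n = 5 each). Cox6b2, the isoform of subunit 6b known from testis, followed. It had 13.3, 10.1, 5.04, 11.7 and 10.2 CPM at 7 dpi, against 19.9, 12.1, 20.7, 39.7 and 16.3 CPM in intact nerve. The groups overlapped by 1 library each and the change was -1.08 ± 0.27 (adjusted p = 0.00464).

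Both falls went with falls of other cells' markers. All 8 perineurial markers fell, and their mean log2(CPM + 1) ran from 5.37 to 6.75 at 7 dpi and from 7.89 to 8.93 in intact nerve. Of the 10 skeletal muscle markers 8 were counted enough to test and 2 of those fell, Tnnt3 (-3.76 ± 0.36) and Mylpf (-1.01 ± 0.23). Their mean log2 ran from 0.722 to 1.49 at 7 dpi and from 1.14 to 2.30 in intact nerve. Schwann markers (8 of 10 lower, median -1.79) and erythrocyte markers (5 of 5, median -2.01) fell as well, while 5 of 10 fibroblast markers rose and 2 fell. Among the 12 pan-endothelial markers 7 rose and 2 fell, with a median log2 fold change of 0.58. Their mean log2 was lowest in intact replicates 4 and 5 (8.697 and 8.359). The part of this endothelial difference in the member values was not tested. The other muscle isoforms of complex IV, Cox6a2 and Cox8b, were at or below 0.263 CPM in every library. With the perineurial mean as a covariate, a setting chosen after seeing the data, Cox7a1 changed by -1.04 (adjusted p = 0.574) and Cox6b2 by 0.90 (adjusted p = 0.376). That covariate left 0 of the 12 nuclear calls, but the 7 rises did not shrink with it: their log2 fold changes were 0.51 to 1.11 and the nuclear median was 0.58, with 77 of 82 positive. It moves with the groups, so the part of other cells in these changes cannot be told apart.

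The remaining falls at 7 dpi were small. Ndufb10, an accessory subunit of the membrane arm of complex I, had 119.6, 121, 99.5, 115 and 116 CPM at 7 dpi, against 158, 144, 162, 265 and 126 CPM in intact nerve. The groups did not overlap and the change was -0.57 ± 0.17 (adjusted p = 0.0145), or 0.07 with the perineurial covariate (adjusted p = 0.953). Ndufs7, a core iron-sulfur subunit next to the quinone site, fell by 0.49 ± 0.13 on the log2 scale (adjusted p = 0.00804). Sdha, the flavoprotein of complex II, had 335, 301, 360, 396 and 386 CPM at 7 dpi, against 438, 452, 461, 479 and 413 CPM in intact nerve. Its change was -0.34 ± 0.13 (adjusted p = 0.0488), and although the groups did not overlap, the call was lost without any 1 of 7 dpi replicates 1, 2 and 3 or intact replicates 1, 2 and 3 (adjusted p = 0.0556 to 0.112). At 7 dpi 3 nuclear members had every library below every intact one, Cox7a1, Ndufb10 and Sdha, against 10.6% of all genes.

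The largest rise was that of Ndufa8, an accessory subunit of complex I on the intermembrane side. It had 281, 256, 271, 279 and 247 CPM at 7 dpi, against 162, 169, 148.4, 195 and 107 CPM in intact nerve. No lesion library was as low as any intact one, and the change was 0.77 ± 0.15 (adjusted p = 6.2e-04; exact permutation p = 0.00794). Uqcrfs1, the Rieske iron-sulfur protein of complex III, averaged 186 ± 8.79 CPM at 7 dpi and 136 ± 19.4 CPM in intact nerve (0.45 ± 0.12, adjusted p = 0.00938), also without overlap. These were the only 2 nuclear members with every library higher, against 10.9% of all genes. Cox5a, a regulatory subunit of complex IV, had 121, 93.3, 99.8, 111 and 89.9 CPM at 7 dpi, against 67.7, 60.5, 55.3, 104 and 51.4 CPM in intact nerve. It rose by 0.61 ± 0.17 (adjusted p = 0.0109), with intact replicate 4 inside the range of the lesion libraries. The other rises were in the membrane ring subunit Atp5g2 (0.70 ± 0.19), in Ndufs4 (0.48 ± 0.16), whose loss causes Leigh-like disease in mice, in Ndufa10 (0.45 ± 0.13) and in the stalk subunit Atp5f1 (0.44 ± 0.14). Their adjusted p ran from 0.00783 to 0.0317.

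How many nuclear members rose depended on 1 library. Without intact replicate 4 the count was 19 in place of 7 and the median 0.28; without intact replicate 5 it was 6 and the median -0.03. With both left out, chosen after seeing the data, 12 rose and 5 fell, with a median of 0.21. Within batches the median was -0.25 in batch 1133, which holds both of those libraries, and 0.25 in batch 1292, so the direction of the nuclear chain as a whole did not hold across batches. The median of all genes was -0.25 in batch 1133 and 0.02 in batch 1292.

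**Figure D3:**
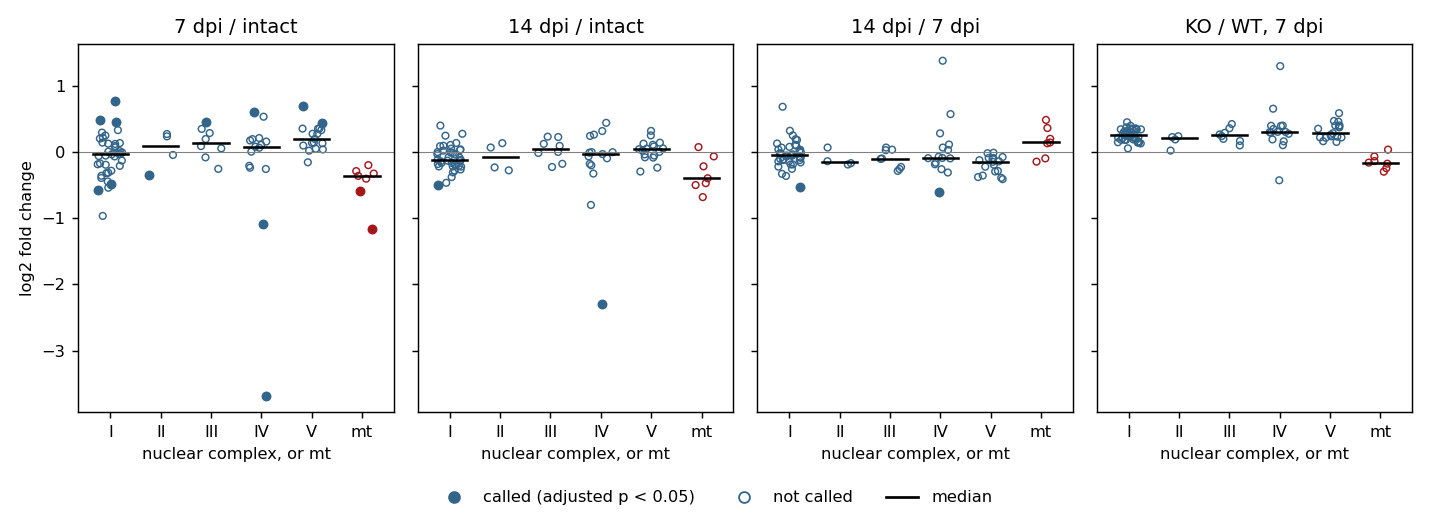
Log2 fold change of each nuclear member by complex and of the mitochondrial members (mt) in 4 comparisons; filled points passed the test and bars are medians. The mitochondrial medians are -0.36 and -0.40 against intact nerve (-0.11 and -0.08 without intact replicates 4 and 5) and -0.16 in KO against WT, where 80 of 81 nuclear members are above 0.

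Of the mitochondrial members, mt-Nd2, a proton-pumping core subunit of complex I, moved most. It had 302, 324, 201, 135 and 97.3 CPM at 7 dpi, against 553, 394, 478, 491 and 265 CPM in intact nerve. The pooled groups overlapped through intact replicate 5, while within each batch every 7 dpi library was lower, and the change was -1.17 ± 0.23 (adjusted p = 7.6e-04). It was -1.70 in batch 1133 and -0.77 in batch 1292. Its neighbour in function mt-Nd4 had 748, 1011, 615, 564 and 605 CPM at 7 dpi, against 1075, 903, 1113, 1322 and 848 CPM in intact nerve. It fell by 0.60 ± 0.18 on the log2 scale (adjusted p = 0.0187), and the call was lost without intact replicates 4 and 5 (-0.35, adjusted p = 0.158). The more abundant mt-Cytb (-0.36 ± 0.19), mt-Nd1 (-0.29 ± 0.19) and mt-Co1 (-0.20 ± 0.17) did not pass, with adjusted p from 0.165 to 0.448, nor did mt-Nd5 (-0.33 ± 0.17) and mt-Nd6 (-0.40 ± 0.23).

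Set against the nuclear chain, mitochondrial RNA was lower in 4 of 5 libraries at 7 dpi. The ratio of the mitochondrial to the nuclear CPM sum was 0.949, 1.37, 0.971, 0.902 and 0.888 in 7 dpi libraries, against 1.36, 1.35, 1.44, 1.09 and 1.47 in intact ones. Replicate 2 of the 7 dpi group reached the intact range and the other 4 lay below it. At 14 dpi the ratio was 1.47, 1.45, 1.01 and 1.01, the first pair from batch 1292 and the second from batch 1133. Mitochondrial members also differed by batch. With the differences within groups averaged over groups, all 7 were higher in batch 1292 in both experiments. The median difference on the log2(CPM + 1) scale was 0.46 in the Tomato and 0.70 in the Cherry experiment. In the intact group alone mt-Co1, mt-Cytb and mt-Nd4 were not higher on average in batch 1292, while the other counted mitochondrial members were.

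At 14 dpi few nuclear members differed from intact nerve. Against intact nerve 0 nuclear members rose and 2 fell of 82, with a median of -0.03; over all genes 6.86% rose and 5.09% fell. That median moved with single libraries: it was 0.20 with 70 of 82 positive without intact replicate 4, -0.15 without 14 dpi replicate 1 and 0.13 without intact replicates 4 and 5. It was -0.17 in batch 1133, 0.07 in batch 1292 and 0.24, with 74 of 82 positive, with the perineurial covariate. Counts at an unadjusted p under 0.05 were 5 nuclear and 2 mitochondrial members, against 23.5% of all genes. Cox7a1 had 3.22, 2.00, 1.75 and 2.08 CPM at 14 dpi, still below every intact library (-2.30 ± 0.44, adjusted p = 0.00203). It was the only nuclear member without overlap in that direction, against 4.73% of all genes, and its share of Cox7a1 and Cox7a2 was 1.25 ± 0.14% (SD, n = 4). The perineurial list had 4 of 8 markers lower and a mean log2 of 6.88 to 7.82 at 14 dpi, and with it as a covariate Cox7a1 changed by -0.82 (adjusted p = 0.484). Called higher were 7 of 10 fibroblast markers (median 2.34) and 3 of 8 macrophage and leukocyte markers (2.49). Of 10 Schwann markers 5 were higher and 2 lower (1.02), and of 11 mural markers 2 were lower (-0.41). Of 12 pan-endothelial markers 2 were higher and 2 lower (0.38). The part of these lists in the member values was not tested. Ndufs7 had 122, 103, 139 and 156 CPM at 14 dpi, against 162, 149, 164, 262 and 157 CPM in intact nerve. It changed by -0.50 ± 0.14 (adjusted p = 0.0265), and the call was lost without 14 dpi replicate 2 or 3 or intact replicate 1 (adjusted p = 0.0537 to 0.0885). None of the 7 mitochondrial members passed, with a median of -0.40 and mt-Nd2 at -0.68 ± 0.24 (adjusted p = 0.0783). Their median was -0.72 in batch 1133 and -0.07 in batch 1292, with 3 of 7 positive in the second. It was -0.25 without intact replicate 4 and -0.08 without intact replicates 4 and 5.

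Set against 7 dpi, Ndufa8 and Cox5a, both raised there, fell at 14 dpi. These contrasts share the 7 dpi libraries, so the values are given side by side only. Ndufa8 had 204, 165, 164 and 206 CPM at 14 dpi and all 5 libraries of 7 dpi lay above them (-0.52 ± 0.16, adjusted p = 0.0435). Cox5a had 75.9, 58.7, 67.0 and 70.6 CPM at 14 dpi, also below every library of 7 dpi (-0.61 ± 0.18, adjusted p = 0.0433). They were the only 2 of 82 nuclear members that passed and the only 2 without overlap, against 9.93% of all genes called and 5.79% with every library lower. All 17 tested subunits of complex V had negative values, from -0.41 to -0.01, where 55.1% of all genes and 44.7% of those with an average log2 CPM of 6 or more were positive. Over all 82 nuclear members 24 were positive (median -0.09), while in batch 1133 alone 51 were (median 0.05) and in batch 1292 alone 17 of 81 (median -0.16). That nuclear median was -0.35, with 5 of 82 positive, with the perineurial covariate. Leaving out 1 library gave nuclear medians of -0.22 to 0.001. Of the 17 of complex V, 2 had an unadjusted p under 0.05, against 21.9% of all genes. Cox7a1 was at 1.38 ± 0.45 (adjusted p = 0.0625). Of the mitochondrial members 0 passed, 0 had an unadjusted p under 0.05 and the median was 0.14. This mitochondrial median was -0.10, with 2 of 7 positive, with the perineurial covariate, and 0.03 to 0.28 with 1 library left out. Both calls are near the threshold and each was lost without any 1 of several libraries: 14 dpi replicates 2 and 3 and 7 dpi replicates 1 to 4 for both, and 14 dpi replicate 4 for Cox5a (adjusted p = 0.0543 to 0.133). Markers of other cells were higher at 14 dpi than at 7 dpi. Of 10 Schwann markers 9 were called higher (median 2.39), with all 5 erythrocyte markers (median 1.83), 4 of 10 fibroblast markers (all 10 positive) and 4 of 8 perineurial markers. Of 12 pan-endothelial markers 10 had negative values and 1 was called, higher. The part of these cells in the lower values of Ndufa8 and Cox5a was not tested.

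**Figure D4:**
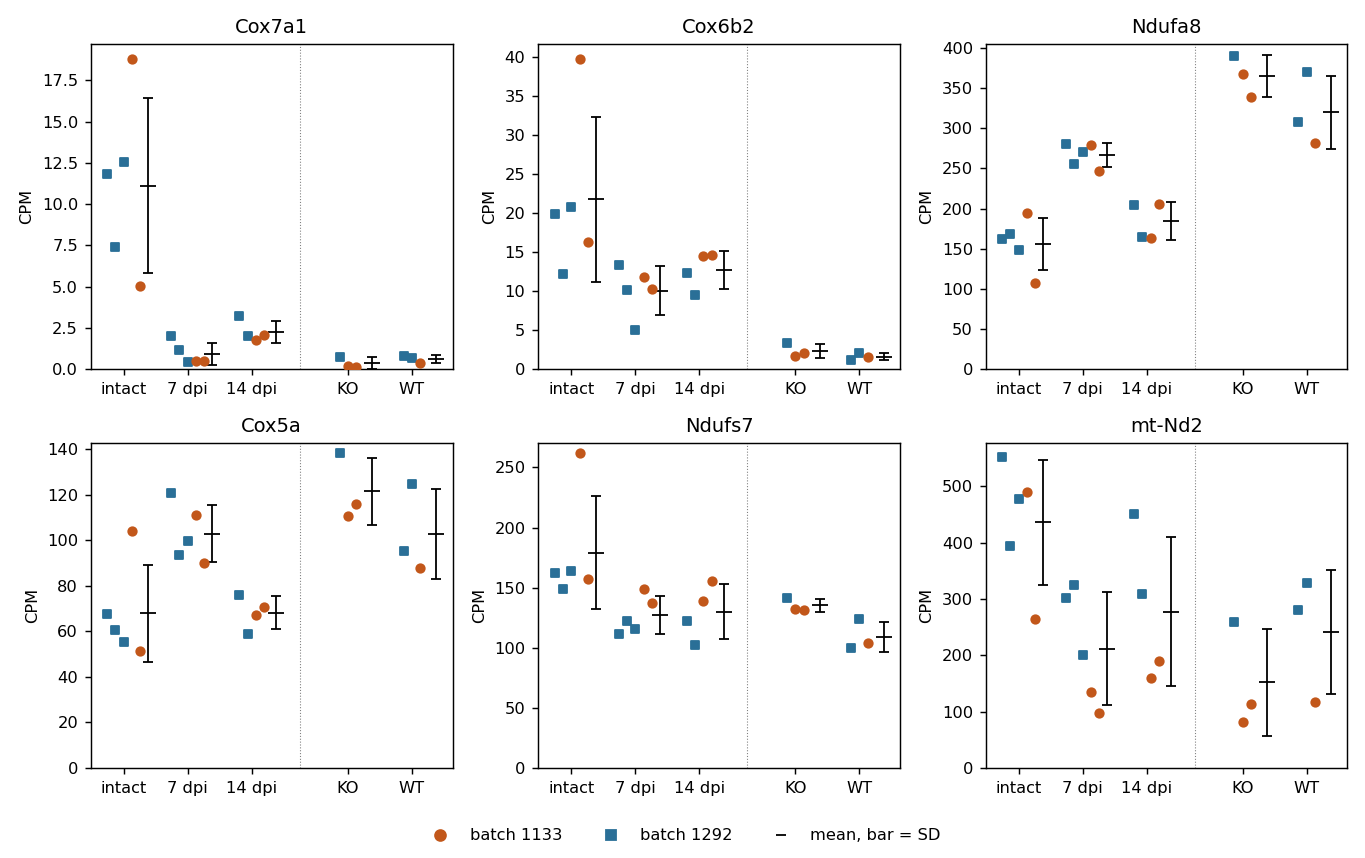
CPM of 6 members in each library, with group mean and SD; circles are batch 1133 and squares batch 1292. Cox7a1 is lower in all 7 dpi and 14 dpi libraries than in any intact one, Ndufa8 is highest at 7 dpi among the Tomato groups, and mt-Nd2 is higher in every library of batch 1292 than in those of batch 1133 in each group but the intact one.

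The isoforms known from hypoxia and mural cells were not called in any comparison. Cox4i2, the lung isoform of subunit 4 that is also known from pericytes, made up 0.835 ± 0.423% of Cox4i1 and Cox4i2 at 7 dpi and 0.806 ± 0.202% in intact nerve, per length. Its CPM changed by -0.26 ± 0.32 at 7 dpi (adjusted p = 0.617) and by 0.32 ± 0.33 at 14 dpi (adjusted p = 0.666). Ndufa4l2, a hypoxia-induced paralog of Ndufa4 also found in pericytes, averaged 18.2 ± 5.68 CPM at 7 dpi and 22.5 ± 11.3 CPM in intact nerve (-0.32 ± 0.34, adjusted p = 0.543). The 95% intervals reach from -0.88 to 0.37 for Cox4i2 and from -0.98 to 0.34 for Ndufa4l2. Of 11 mural markers 8 fell at 7 dpi. Atp5g3, the main isoform of the ATP synthase ring, made up 78.2 ± 2.46% of the 3 ring isoforms at 7 dpi and 80.8 ± 4.52% in intact nerve (SD, n = 5 each).

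Endothelial deletion of Plxnd1, the plexin receptor of class 3 semaphorins, was tested at 7 dpi. No member passed in either direction: 0 of 81 nuclear and 0 of 7 mitochondrial members, against 0.308% of 16227 genes. The nuclear members were nonetheless nearly all on one side. Of 81, 80 had a positive log2 fold change, against 48.6% of all genes, with a median of 0.27, against -0.01. At an unadjusted p under 0.05, 45 nuclear members were higher in KO libraries, against 5.92% of all genes. Members share cells and libraries and are not independent. Of the better counted nuclear members (average log2 CPM 6 or more) 70 of 70 were positive, against 62.5% of all genes at that level, with medians of 0.27 and 0.06.

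The difference was small per gene. Atp5b averaged 1816 ± 132.7 CPM in KO and 1669 ± 87.8 CPM in WT libraries (0.16 ± 0.09, adjusted p = 0.524). Cox4i1 had 1041, 983 and 936 CPM in KO libraries, against 701, 877 and 832 CPM in WT libraries, with no overlap (0.30 ± 0.11, adjusted p = 0.318; exact permutation p = 0.1, the smallest that 3 against 3 can give). Ndufs7 had 142, 132 and 132 CPM in KO libraries, against 100.04, 124 and 104 CPM in WT libraries, again with no overlap (0.34 ± 0.11, adjusted p = 0.252). In all 6 nuclear members had every KO library above every WT library, against 5.47% of all genes; the others were Atp5a1, Atp5d, Atp5g2 and Atp5g3. Cox7a1 was the only nuclear member with a negative value (-0.43 ± 0.68), at 0.767, 0.210 and 0.152 CPM in KO libraries, against 0.817, 0.676 and 0.368 CPM in WT libraries.

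Mitochondrial members did not share that side. In KO against WT, 1 of 7 was positive and the median was -0.16, with mt-Co1 at 0.04 ± 0.11 and mt-Nd2 at -0.24 ± 0.13 (adjusted p = 0.933 and 0.5003). The ratio of the mitochondrial to the nuclear sum was 0.827, 0.783 and 0.784 in KO libraries, against 1.29, 1.04 and 0.898 in WT libraries, with no overlap. Batch 1292 holds KO replicate 1 with WT replicates 1 and 2, and batch 1133 holds the other 3 libraries, so the KO group leans to the batch where mitochondrial members are lower. Within batch 1292 the ratio was 0.827 in the KO library, against 1.29 and 1.04 in WT libraries, and within batch 1133 it was 0.783 and 0.784, against 0.898. The nuclear median was 0.34 in batch 1292 and 0.21 in batch 1133, with 80 of 83 and 78 of 80 positive. Without a batch term it was 0.11, with 66 of 81 positive. Leaving out 1 library at a time gave medians of 0.21 to 0.32 with 78 to 80 of 81 positive.

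Perineurial and Schwann markers leaned to one side by genotype too, where 0.308% of all genes were called. All 7 tested perineurial markers had negative values with 1 called, and their mean log2 was 2.84 to 3.32 in KO and 3.21 to 3.59 in WT libraries. All 10 Schwann markers were negative with 1 called, at 2.16 to 3.47 in KO and 2.87 to 4.43 in WT libraries. The part of these differences in the nuclear values was not tested. The 12 pan-endothelial markers had 6 positive and 6 negative values and a median of 0.02. Fibroblast (6 of 10 positive, median 0.06), mural (3 of 11, -0.04) and erythrocyte markers (2 of 5, -0.05) were mixed, with 0 called. So were macrophage and leukocyte markers (3 of 7 positive, median -0.21), while 4 of 5 tested skeletal muscle markers were positive with 0 called.

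**Figure D5:**
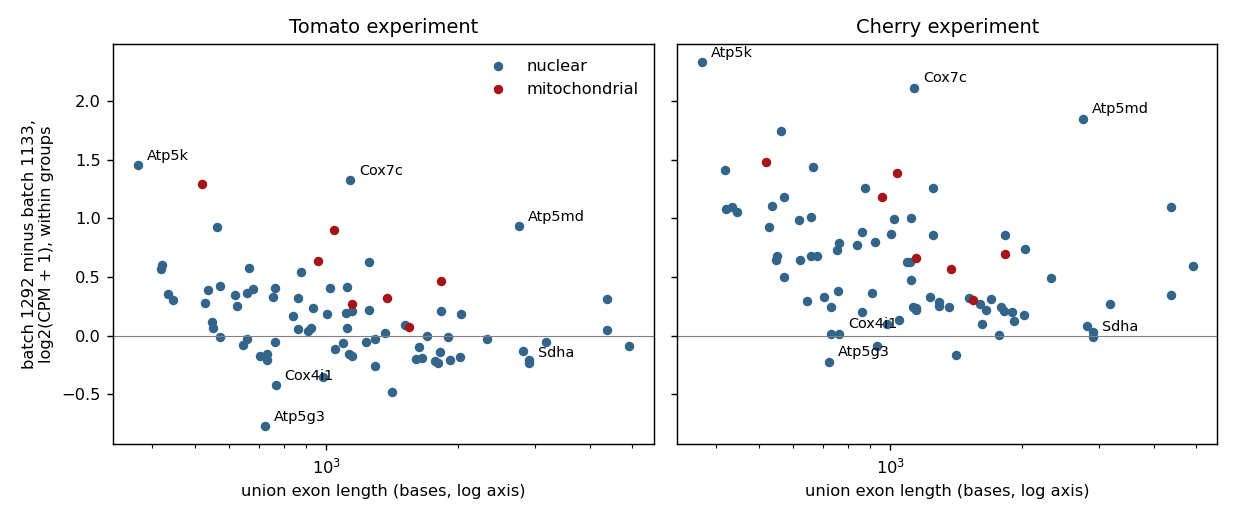
Difference between batch 1292 and batch 1133 within groups, averaged over groups, against exon length on a log axis. Differences are on the log2(CPM + 1) scale, for 75 nuclear and 7 mitochondrial members in each experiment. Atp5k, with 371 bases, lies highest, Cox7c and Atp5md, with 1131 and 2755 bases, come next among nuclear members, and Sdha and Cox4i1 lie near or below 0.

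The nuclear members also differed between batches, and unequally. Atp5k, Cox7c, Atp5md, Atp5d and Atp5g3 were named after their values were seen. Atp5k, subunit e of the ATP synthase, had 147 CPM in the KO library of batch 1292 and 24.6 and 26.8 CPM in those of batch 1133; in WT libraries it had 62.2 and 122 CPM in batch 1292 and 18.3 CPM in batch 1133. Within groups it was higher in batch 1292 by 2.33 in the Cherry and 1.45 in the Tomato experiment on the log2(CPM + 1) scale. Cox7c, a small subunit of complex IV, was higher there by 2.11 and 1.33. Over 75 nuclear members with a mean log2(CPM + 1) above 4, the batch differences of the 2 experiments had a Spearman rho of 0.88, across genes that share libraries. With exon length rho was -0.44 in the Cherry and -0.43 in the Tomato experiment. The 19 members with under 700 bases of exon were all higher in batch 1292 in the Cherry experiment, by a median of 1.01, against 0.30 for the 56 longer ones. The 6 members whose KO libraries lay above all WT libraries had batch differences between -0.22 and 0.10 in the Cherry experiment. All 75 spanned -0.22 to 2.33 there. Such a lack of overlap requires KO libraries of batch 1133 to exceed WT libraries of batch 1292. The rule thus selects against members much higher in batch 1292, and the narrow range is no separate result.

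The wider mitochondrial program is given from lists of other genes. At 7 dpi their counts of calls are to be read against the 32.0% of all genes that passed. Of 12 regulators of mitochondrial biogenesis 2 rose and 3 fell at 7 dpi. Ppargc1a, the coactivator PGC-1alpha, fell to 7.67 ± 3.38 CPM at 7 dpi, against 57.6 ± 14.0 CPM in intact nerve (-2.91 ± 0.30; SD, n = 5 each), and was at 16.6 ± 3.30 CPM at 14 dpi (-1.82 ± 0.31). Gabpb1, the beta subunit of the ETS factor NRF2/GABP, rose by 0.72 ± 0.15. Of 12 genes of mitochondrial DNA maintenance and transcription 2 rose and 1 fell, with Tfam, the packaging and transcription factor, at 0.51 ± 0.16 and the nuclease Mgme1 at -0.75 ± 0.16. Of 14 genes of the citric acid cycle 3 rose and 0 fell at 7 dpi, led by citrate synthase Cs (304 ± 16.1 CPM at 7 dpi and 215 ± 17.1 CPM in intact nerve), which was lower at 14 than at 7 dpi (-0.58 ± 0.15).

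Of 7 tested carriers and uncoupling genes 3 rose and 0 fell at 7 dpi, against 32.0% of all genes called, including Slc25a5, an ADP/ATP carrier (0.81 ± 0.15), and Slc25a3, the phosphate carrier (0.50 ± 0.12, named after its value was seen). Both were lower at 14 than at 7 dpi (-0.54 ± 0.16 and -0.45 ± 0.13). Atpif1, the inhibitor of ATP hydrolysis by complex V, rose at 7 dpi (0.94 ± 0.22) and stayed higher than intact at 14 dpi (0.75 ± 0.23). Of the assembly factors, 0 of 13 for complex I passed, 2 of 10 for complexes II and III fell, including Uqcc1 (-0.71 ± 0.12), and 1 of 18 for complex IV rose (Cox18, 0.65 ± 0.16) while 2 fell, including Surf1 (-0.77 ± 0.14). In KO against WT, 0 genes of any of these lists passed. As in the nuclear subunits, nearly all values were positive in the lists for complex I assembly (13 of 13), complex IV assembly (17 of 18), ATP synthase assembly (5 of 5), supercomplex factors (5 of 5), the citric acid cycle (13 of 14) and carriers (7 of 7), with medians of 0.13 to 0.29, and 8 of 10 were positive for complexes II and III assembly (median 0.09). In the lists for mitochondrial RNA (6 of 13 positive), mitochondrial DNA (7 of 12), biogenesis regulators (4 of 11) and mobile electron carriers (7 of 12), the medians were -0.04 to 0.05.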

How the data were processed

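PolyA RNA of sorted cells was sequenced in 14 Tomato and 6 Cherry libraries. The authors deposited raw counts per gene in whole numbers, 1 table for each experiment. They also deposited a Cherry table of estimated counts, made from the raw counts by ComBat-Seq batch adjustment, per the file headers. Trimmomatic 0.39, STAR 2.5.3a, featureCounts 1.6.4 and Cell Ranger 3.0.2 with mm10 (GRCm38) are named in the submitters' processing notes; the sources used here give neither annotation release nor strand setting. Lengths and coordinates are those of the deposited tables.

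R 4.3.3 and edgeR 4.0.16 were used for the counts (TMM, filterByExpr, robust quasi-likelihood F test, batch as a term), 1 fit for each experiment, on 20409 and 16227 genes. Members are read from these fits. A member was called at a Benjamini-Hochberg adjusted p under 0.05 over all genes tested. Of 88 nuclear members 82 passed the low-count filter in the Tomato and 81 in the Cherry experiment, and 7 of 13 mitochondrial members in both. Fold changes are log2, and SE is the absolute log2 fold change over the square root of F. For single genes a two-sided exact permutation test was run on log2(CPM + 1). Replicate libraries were not duplicates (chi-square per degree of freedom 18.2 to 149.2 over 32 pairs). No label ties a library to animals, so the p-values rest on the spread of libraries, possibly only technical.

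Words of 50 bases were compared with GENCODE M21 transcripts. Alternatives were DESeq2 1.42.0 with its own size factors and test, limma-voom (limma 3.58.1), library size only, scaling from nuclear genes and no low-count filter. Others were no batch term, each batch alone, only the 2 groups compared, each library left out, and the ComBat-Seq table. Leaving out both extreme intact libraries and the perineurial covariate were chosen after seeing the data. Members, the 20 gene lists and the tests were chosen with earlier results of these data known. Named were all mitochondrial members; per comparison up to 8 called rises and 8 called falls of the greatest fold (average log2 CPM 3 or more); listed isoforms, Sdha to Sdhd and core subunits; members of highest and lowest level per length; Plxnd1; and up to 2 rises and 2 falls per list. Other names were chosen after their values were seen.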

Additional observations from a re-analysis of the deposited data

Results flagged for a closer look

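In 10 of 132 groups of 4 or 5 libraries, 1 library stood farther from its group than Dixon's 95% critical value allows, and chance alone flags about 1 in 20 groups. Intact replicate 4 was highest for Atp5f1 (309.8 CPM, next library 214.6), Cox4i1 (1944, next 946), Ndufb10 (265, next 162) and Ndufs7 (262, next 164). Intact replicate 5 was lowest for mt-Nd1 (2628 CPM, next library 3944) and was the only intact library with counts of Cox8c (1.55 CPM). Replicate 2 of the 7 dpi group was highest for mt-Co1 (8076 CPM, next 5821) and for the ratio of the mitochondrial to the nuclear sum (1.37, next 0.971). Ndufb10 was lowest in 7 dpi replicate 3 (99.5 CPM, next 115), and Ndufa10 highest in 14 dpi replicate 4 (162.9 CPM, next 125). Causes were not tested.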

How the results depend on the processing

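No paired analysis was possible because the labels give no replicate numbers, which here follow accession order and pair no libraries. Of 459 alternatives for counts and medians, 403 kept side and size; of 372 for single members, 289 did, 81 fell short of the threshold and 2 reversed (Cox6b2 at 0.90 and Ndufb10 at 0.066 with the perineurial covariate at 7 dpi). The cause was not tested. Nuclear members called higher at 7 dpi (7) were 11 with DESeq2 and its own test, 11 by library size only and 3 with no low-count filter. They were 0 in batch 1133, 14 in batch 1292, 12 without both extreme intact libraries and 0 with the perineurial covariate. Those called lower (5) were 1 in batch 1133 and 0 with the covariate. Mitochondrial members called lower at 7 dpi (2) were 1 in either batch, 1 without both extreme libraries, 1 without a batch term and 0 with the covariate. The nuclear median at 7 dpi (0.08) was -0.25 in batch 1133 and 0.58 with the covariate, and the mitochondrial one (-0.36) was 0.094 with it. At 14 dpi against intact, nuclear members called lower (2) were 5 with DESeq2, 6 by library size, 1 in either batch, 1 without a batch term and 0 with the covariate; mitochondrial ones (0) were 2 with DESeq2, 1 by library size and 1 with no filter. At 14 against 7 dpi, nuclear members called lower (2) were 6 with DESeq2, 7 by library size, 5 from the 2 groups alone, 1 with no filter and 0 in either batch, without a batch term or with the covariate; those higher (0) were 1 with DESeq2, library size, no filter or the 2 groups alone. In KO against WT, nuclear members called higher (0) were 8 from the ComBat-Seq table, 2 with DESeq2 and 2 with no filter. Leaving out 1 replicate gave 5 to 19 nuclear higher, 4 to 7 nuclear lower and 2 to 3 mitochondrial lower at 7 dpi; 0 to 2, 1 to 4 and 0 to 2 at 14 dpi; and 0 to 1 higher and 0 to 3 lower at 14 against 7 dpi. Depth limits Cox7a1 after injury, with 11 counts in its lowest Tomato library.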
